A study of Mus musculus with 4 samples.

Results

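The genes described here are the 5 NF-kB subunits Rel, Rela, Relb, Nfkb1 and Nfkb2 and the 3 subunits of the IkB kinase complex, Chuk, Ikbkb and Ikbkg. They were chosen by symbol and joined to the gene tables by Ensembl gene ID, which gave 8 of 8 genes out of 55536 annotated gene rows. Cytosolic RNA of C57BL/6J mouse macrophages, grown in culture from bone marrow, had been depleted of rRNA and made into 4 libraries, labelled biological replicates 1 to 4. The cells of all 4 had received lipid A, the TLR4-binding part of lipopolysaccharide, at 100 ng/ml for 12 h, had been kept without it for 12 h after washing, and had received 100 ng/ml again for 15 min. The samples used here hold this 1 group and no untreated cells, so none of the levels can be read as a change caused by lipid A. The labels name 1 donor record for the 4 libraries, give neither sex nor age, and do not say whether animals or cultures were separate, so p-values rest on the spread of these 4 samples, part of which may be technical.

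NF-kB proteins are dimeric transcription factors that bind kappa B sites in DNA through a shared Rel homology region. RelA, RelB and c-Rel carry activation domains, whereas Nfkb1 and Nfkb2 encode the precursors p105 and p100, which are processed to the DNA-binding subunits p50 and p52. In resting cells inhibitory IkB proteins hold the dimers in the cytoplasm, and TLR4 signalling activates the IkB kinase complex, which marks IkB for degradation. In macrophages this canonical route drives inflammatory genes, while a slower non-canonical route runs through the kinase IKK-alpha and the processing of p100.

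Promoter sequences are shown first because Rel and Nfkb2, both known NF-kB targets, held kappa B matches there. The RefSeq promoter table (GRCm38.p6), which gives 250 bases before and 50 after each start, held windows for 5 of the 8 genes, 10 windows in all; Relb, Nfkb1 and Ikbkb had none. The kappa B consensus was searched on both strands, and matches, which may overlap, are in capitals.
Rel, chr11:23770920-23771219, minus strand: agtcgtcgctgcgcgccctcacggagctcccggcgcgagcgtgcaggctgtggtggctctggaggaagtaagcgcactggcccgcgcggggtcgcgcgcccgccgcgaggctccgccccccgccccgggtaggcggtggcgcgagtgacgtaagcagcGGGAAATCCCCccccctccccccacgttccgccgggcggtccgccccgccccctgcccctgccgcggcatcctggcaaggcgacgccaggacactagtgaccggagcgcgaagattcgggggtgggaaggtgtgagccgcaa
Nfkb2 upstream start, chr19:46304487-46304786, plus strand: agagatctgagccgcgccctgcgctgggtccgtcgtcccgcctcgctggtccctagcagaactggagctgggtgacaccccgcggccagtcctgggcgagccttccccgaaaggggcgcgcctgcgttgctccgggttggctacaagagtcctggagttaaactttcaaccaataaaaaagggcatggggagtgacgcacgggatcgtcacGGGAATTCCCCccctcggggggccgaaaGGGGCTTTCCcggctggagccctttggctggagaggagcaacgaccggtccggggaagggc
Nfkb2 downstream start, chr19:46305445-46305744, plus strand: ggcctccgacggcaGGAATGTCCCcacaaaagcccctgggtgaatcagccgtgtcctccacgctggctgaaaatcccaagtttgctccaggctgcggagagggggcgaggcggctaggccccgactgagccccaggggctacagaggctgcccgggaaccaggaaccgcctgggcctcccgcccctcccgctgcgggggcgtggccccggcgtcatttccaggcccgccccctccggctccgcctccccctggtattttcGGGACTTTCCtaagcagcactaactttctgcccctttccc
Rela, shown as a window with no match, chr19:5637291-5637590, plus strand: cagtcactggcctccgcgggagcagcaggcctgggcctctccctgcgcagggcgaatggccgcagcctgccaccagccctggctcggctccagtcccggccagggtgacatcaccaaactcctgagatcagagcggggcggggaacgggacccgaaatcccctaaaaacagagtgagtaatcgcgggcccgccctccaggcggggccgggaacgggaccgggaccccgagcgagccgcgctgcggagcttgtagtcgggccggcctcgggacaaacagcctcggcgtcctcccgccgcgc

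The Rel window held the match GGGAAATCCC, whose first base lay 92 bases upstream of the start. The upstream Nfkb2 window held GGGAATTCCC at 39 bases and GGGGCTTTCC at 11 bases upstream of its start. The downstream Nfkb2 window held GGGACTTTCC from position 11 of the transcript and GGAATGTCCC at 236 bases upstream. A further Nfkb2 window overlapped the downstream one and repeated its GGGACTTTCC. In all, 4 of the 10 windows, belonging to 2 of the 5 genes, held the consensus, and 8.46% of the 32841 windows in the table did. The windows of Rela, Chuk and Ikbkg held no match to these letters. The motif GGNNTTTCC, searched on both strands and chosen later, overlapped consensus matches in those same 4 windows and occurred in 5.83% of all windows. A match describes the sequence and was not tested for binding.

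All 8 genes were detected in every library, with 1299 to 5309 expected reads each. Levels are in TPM, a length-corrected abundance relative to everything else in the same library. Summed over the 8 genes they came to 126.4, 106.0, 119.0 and 156.7 TPM in replicates 1 to 4. On average the precursors were the most abundant of the 8 by TPM and Rel was the least abundant. By expected reads, which are not corrected for length, Rel lay above Rela, Relb, Chuk and Ikbkg in every library. Only 25.3% to 36.6% of the TPM of a library lay on protein-coding genes. Each level was therefore also set against the median of the 12636 tested protein-coding genes, which was 4.80, 4.11, 4.84 and 5.51 TPM in replicates 1 to 4.

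**Figure D1:**
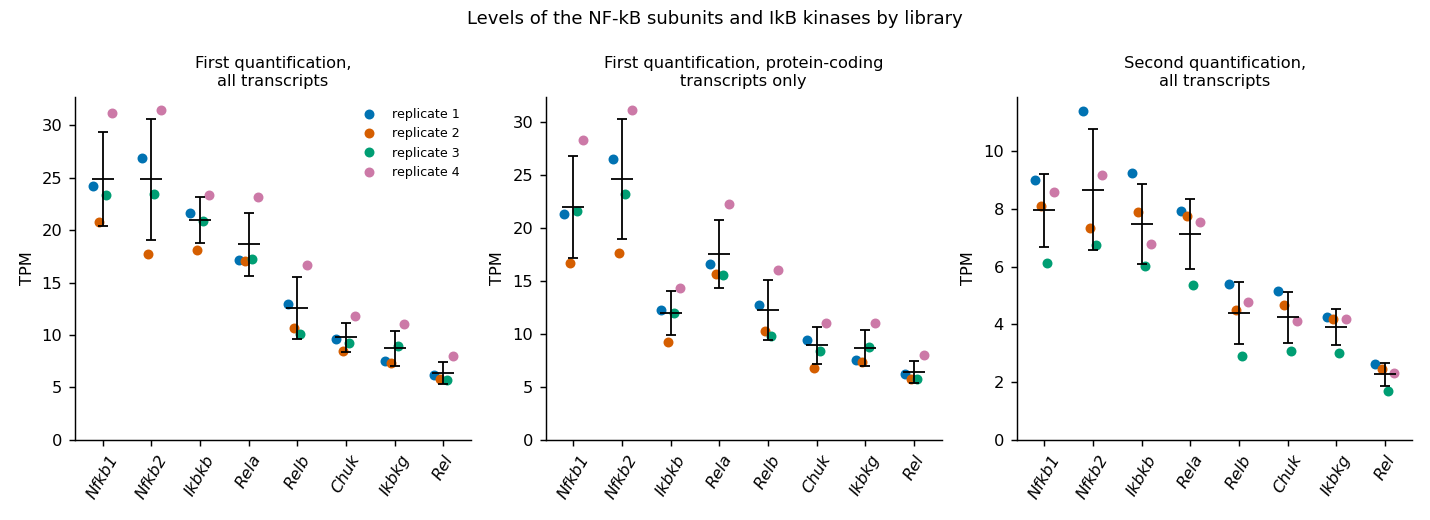
Levels of the 8 genes in TPM on linear axes from 0, by library, from the first quantification over all transcripts (left) and over protein-coding transcripts only (middle), and from the second quantification (right); points are libraries and bars are mean ± SD (n = 4). Ikbkb averaged 21.01 TPM on the left, above Rela and Relb, and 12.0 TPM in the middle, below Rela and close to Relb (12.2 TPM), which it exceeded in replicate 3 only. Replicate 4 was highest for every gene on the left but not on the right.

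Among the subunits, Nfkb1, the precursor of p50 (chr3:135584655-135691547, mm10), stood at 24.25, 20.75, 23.38 and 31.23 TPM in replicates 1 to 4. Nfkb2, the precursor of p52 (chr19:46304320-46312385), stood at 26.91, 17.76, 23.43 and 31.45 TPM. Their means were 24.9 ± 4.47 and 24.9 ± 5.78 TPM (SD, n = 4), and their ranges overlapped almost entirely. Rela, the main activating partner of p50 in the canonical route (chr19:5637483-5648130), stood at 17.17, 17.04, 17.26 and 23.15 TPM. Replicates 1 to 3 lay close together and replicate 4 stood above them. Relb, the activating partner of p52 in the non-canonical route (chr7:19606217-19629438), had 12.98, 10.71, 10.11 and 16.66 TPM. Rel, which encodes c-Rel (chr11:23736847-23770970), had 6.20, 5.78, 5.73 and 7.97 TPM, the lowest of the 8 in each library. Every Rela value lay above every Relb value, and every Relb value above every Rel value.

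Among the kinase subunits, Ikbkb, the catalytic IKK-beta of the canonical route (chr8:22659212-22706589), stood at 21.69, 18.13, 20.85 and 23.38 TPM. Chuk, the catalytic IKK-alpha (chr19:44073335-44107480), had 9.61, 8.48, 9.25 and 11.78 TPM. Ikbkg, the regulatory subunit NEMO (chrX:74393290-74453854), had 7.57, 7.32, 8.95 and 11.04 TPM. Over all transcripts, the ranges of Chuk and Ikbkg overlapped each other and not that of Ikbkb. The highest TPM of all 8 genes fell in replicate 4, whose protein-coding median was also the highest. In the second quantification, which was made directly from the read files, all 8 genes were highest in replicate 1 and lowest in replicate 3, for example Nfkb1 at 9.00 and 6.13 TPM.

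All 8 genes were called above the median of tested protein-coding genes (limma on log2(TPM + 0.1) centred in each library, Benjamini-Hochberg adjusted p below 0.05 over 16262 genes). Of all protein-coding genes tested, 46.0% were called above it and 45.9% below. Differences of log2(TPM + 0.1) from the median were 2.34 for Nfkb1 (SE 0.07), 2.32 for Nfkb2 (SE 0.09), 2.10 for Ikbkb (SE 0.06) and 1.93 for Rela (SE 0.07). They were 1.35 for Relb (SE 0.10), 1.00 for Chuk (SE 0.06), 0.83 for Ikbkg (SE 0.08) and 0.40 for Rel (SE 0.08). The limma adjusted p was 0.00203 for Rel and at most 3.33e-05 for the other 7 genes. The median of the 8 was 1.64, against -0.00364 over all tested protein-coding genes. Rel stood at percentile 56.4 of the tested protein-coding genes and Nfkb1 at percentile 84.6. With a summed count of at least 40 in place of 10, which leaves fewer low genes and so raises the median, Rel lost its call (0.12, limma adjusted p = 0.185, range over its alternatives 4.52e-172 to 0.185) and Ikbkg stood at 0.55. The lowest p-value of that range came from the fit with no filter on low counts. Its SE for Rel (0.17) was pooled over genes and does not measure the spread of Rel in these 4 samples. The SEs of the main fit are also drawn toward those of other genes, so they do not measure the spread of each gene alone. The size of the differences of the 8 genes depends on the median: with no filter on low counts they were 4.65 for Rel to 6.59 for Nfkb1, and with the second quantification 1.65 for Chuk, 1.54 for Ikbkg and 0.78 for Rel, which also stood at 0.61 over protein-coding transcripts only. All 8 also lay above 1 TPM, as did 71.0% of tested protein-coding genes.

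The order of the genes was compared within libraries, over 28 pairs, by exact two-sided sign-flip permutation of the differences of log2(TPM + 0.1). With 4 libraries the smallest p this test allows is 0.125, or 0.135 adjusted over the pairs, so no pair could pass 0.05. The sign was the same in all 4 libraries for 26 of the 28 pairs, and for 20 with the second quantification. Nfkb1 and Nfkb2 differed by 0.02 ± 0.15 (SD, n = 4), with Nfkb1 higher in 1 of 4 libraries (exact p = 1). Nfkb2 exceeded Ikbkb by 0.22 ± 0.20 in 3 of 4 libraries (exact p = 0.25). These neighbours therefore did not differ beyond their spread in a constant direction.

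**Figure D2:**
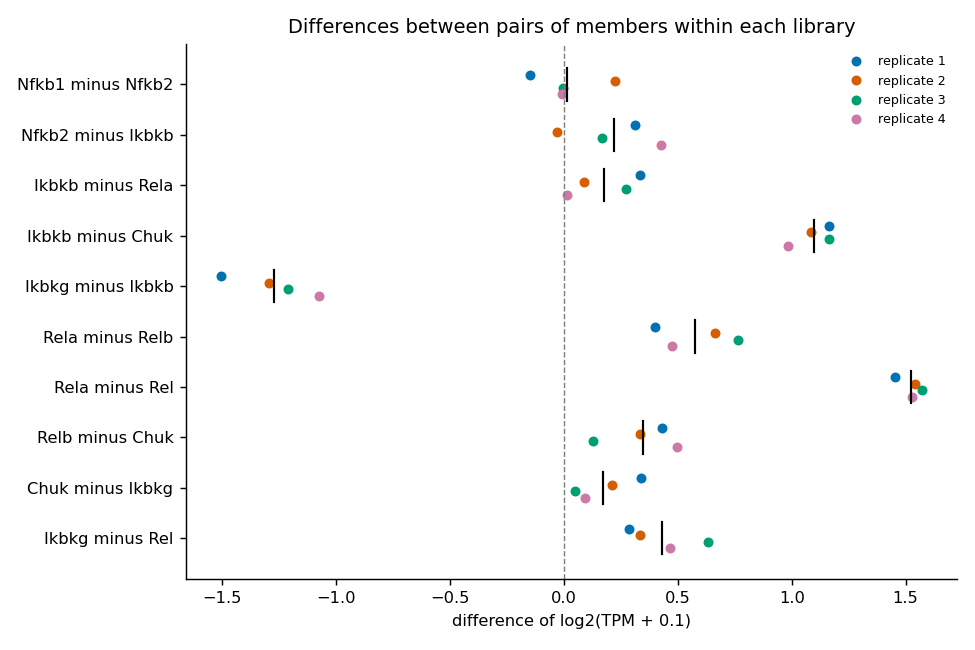
Difference of log2(TPM + 0.1) between pairs of genes within each library (x axis) for neighbours in the order of mean TPM and pairs of related role (rows); points are the 4 libraries, black lines are means and the dashed line is 0. Rela minus Rel stood between 1.46 and 1.57 in the 4 libraries, whereas Nfkb1 minus Nfkb2 lay on both sides of 0.

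Rela exceeded Rel by 1.46, 1.54, 1.57 and 1.53 on the log2 scale in replicates 1 to 4, a fold of 2.88. The SD of that difference was 0.05, the second smallest of the 28 pairs after Nfkb1 minus Chuk (1.33 ± 0.05). By expected counts Rel was instead the higher, at 2300, 2962, 3285 and 3359 against 2116, 2825, 3150 and 3281 for Rela. The TPM difference of Rela and Rel thus rests on annotated length, 7466 bases for Rel-201 and 2716 for Rela-201. Rela exceeded Relb by 0.58 ± 0.17. Ikbkb exceeded Chuk, its catalytic partner, by 1.17, 1.09, 1.16 and 0.98, a fold of 2.14. Ikbkg lay below Ikbkb by 1.51, 1.30, 1.21 and 1.08, and the difference Ikbkg minus Ikbkb averaged -1.27 ± 0.18. All these pairs had 1 sign in 4 of 4 libraries (exact p = 0.125 each). Smaller steps with 1 sign in 4 of 4 libraries were Ikbkb over Rela (0.18 ± 0.15), Relb over Chuk (0.35 ± 0.16), Chuk over Ikbkg (0.17 ± 0.13) and Ikbkg over Rel (0.43 ± 0.16). Of these smaller steps, only Ikbkg over Rel kept 1 sign in the second quantification. There Ikbkb lay below Rela in replicate 4, Relb below Chuk in replicates 2 and 3, and Chuk below Ikbkg in replicate 4.

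The level of Ikbkb depended on a short transcript. Ikbkb-201, the full-length coding transcript (3580 bases, 757 codons), held 54.8%, 49.0%, 56.1% and 58.3% of the gene's TPM in replicates 1 to 4. Ikbkb-213, a processed transcript of 601 bases in 3 exons with no annotated reading frame, held 42.3%, 39.1%, 39.2% and 34.7%. It held 38.4% ± 3.84 (SD, n = 4) in the second quantification. By expected counts, which do not weight a short transcript up, Ikbkb-213 held 6.85% of the gene and Ikbkb-201 85.2%. Of its bases 422 lay outside Ikbkb-201, but 0 were absent from all other Ikbkb transcripts. Over protein-coding transcripts only, an alternative chosen after the data were seen, Ikbkb stood at 12.24, 9.27, 12.00 and 14.33 TPM. Rela then stood at 17.5 TPM and Relb at 12.2 TPM on average, and Ikbkb minus Rela changed its sign to -0.55. Ikbkb then also lay nearer to Chuk and Ikbkg, at 12.0 ± 2.08 TPM for Ikbkb, 8.91 ± 1.76 TPM for Chuk and 8.67 ± 1.69 TPM for Ikbkg. The ranges of Chuk and Ikbkg then overlapped that of Ikbkb.

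Both precursor genes were divided mainly between transcripts of the same coding length with different 5' ends. Of Nfkb2, the upstream start shown above carried Nfkb2-201 and Nfkb2-204. The downstream start, 958 bases away, carried Nfkb2-202, and all 3 have 899 codons. Nfkb2-206 (878 codons) is annotated from further upstream than both starts and held 6.67% ± 0.90. The upstream start held 49.7%, 53.3%, 54.2% and 54.6% of the TPM in replicates 1 to 4, and the downstream start 42.2%, 38.1%, 39.1% and 37.8%. With the second quantification the order turned round, at 41.5% ± 2.07 for the upstream and 51.0% ± 1.92 for the downstream start. Both starts held a kappa B match in their windows. Nfkb1-206 (3007 bases) and Nfkb1-201 (4117 bases), with 971 codons each, held 45.8% ± 2.46 and 21.9% ± 4.29 of Nfkb1. Their annotated 3' ends differ as well. Nfkb1-203, annotated without its start, held 20.1% ± 1.15 in the first quantification and 9.73% ± 1.85 in the second. Nfkb1-207, a transcript annotated for nonsense-mediated decay and also lacking its start, held 8.30% ± 2.75 and 0.18% ± 0.35.

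The activating subunits were each led by 1 coding transcript. Rel had 1 annotated transcript, Rel-201 (7466 bases, 588 codons). Rela-201 (549 codons) held 93.2% ± 2.92 of Rela in the first quantification and 81.8% ± 1.00 in the second, where the retained-intron transcript Rela-203 held 14.5% ± 0.52. Relb-202 (558 codons) held 85.4% ± 4.75 of Relb, and Relb-201 (555 codons) 8.70% ± 3.65. Chuk-201 (745 codons) held 73.7% ± 7.59 of Chuk and Chuk-202 (719 codons) 17.0% ± 2.77. Chuk-206, a retained-intron transcript of 656 bases, held 0.68% ± 1.35 in the first quantification and 14.2% ± 4.66 in the second.

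Ikbkg had the most annotated transcripts, 18 in all, some of which held 0 TPM in every library of the first quantification. Ikbkg-202 (411 codons) held 45.5%, 29.1%, 38.5% and 28.3% of its TPM in replicates 1 to 4. Ikbkg-203 (412 codons) held 28.5%, 28.4%, 14.0% and 27.0%. Ikbkg-202 led in all 4 libraries of the first quantification, narrowly in replicate 2, but in 1 of 4 in the second. Ikbkg-216, whose reading frame is annotated without its end, held 16.6% ± 5.66, and Ikbkg-215, also incomplete, held 4.81% ± 3.19 in the first quantification and 14.5% ± 4.26 in the second. Both are short, at 718 and 872 bases, and 0 bases of Ikbkg-216 were absent from all other Ikbkg transcripts. By expected counts, which do not weight a short transcript up, they held 2.62% and 1.02%. Ikbkg-206 (6736 bases) held 18.4% by expected counts and 9.30% of TPM. Ikbkg-202, Ikbkg-203 and Ikbkg-216 share the most downstream RefSeq start, which held 76.5% ± 4.60 of the TPM. The most upstream start, 36390 bases away, held 1.45% ± 1.55. G6pdx, which lies on the opposite strand across the 5' part of Ikbkg, had 46.9 ± 8.38 TPM, and AC114539.1, opposite to the 5' part of Nfkb2, had 4.60 ± 0.51 TPM. Whether reads were counted by strand is not given in the sources used here, so reads in these overlaps are uncertain.

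**Figure D3:**
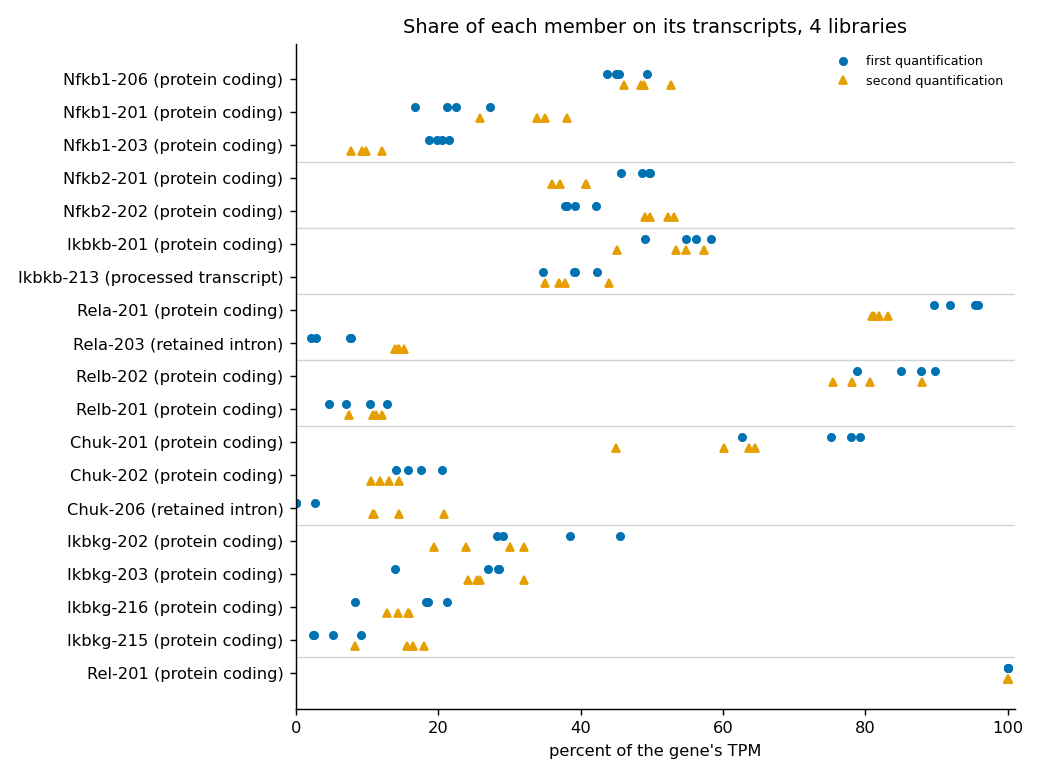
Percent of each gene's TPM (x axis) on the transcripts that held at least 10% in either quantification (rows, with their annotated class); circles are the 4 libraries of the first quantification and triangles those of the second. For Nfkb2 the leading transcript was Nfkb2-201 in the first and Nfkb2-202 in the second quantification, and Ikbkb-213 held 34.7% to 43.9% in both.

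Replicate 2 held more of these genes on retained-intron transcripts than the other libraries. Retained-intron transcripts of the 8 genes together held 1.01%, 6.24%, 2.82% and 2.09% of their TPM in replicates 1 to 4, and 5.02%, 11.6%, 5.55% and 6.09% in the second quantification. By expected counts the shares were 0.537%, 4.47%, 1.48% and 1.495%. Over all genes, retained-intron transcripts held 1.13%, 1.99%, 1.33% and 1.46% of the counts. In the second quantification they held 1.22%, 2.27%, 1.28% and 1.58%, so replicate 2 was highest over all genes in both. Of Chuk they held 1.56%, 19.8%, 9.09% and 6.79% of TPM (25.4%, 43.2%, 23.3% and 24.9% in the second quantification), of Nfkb1 0.454%, 9.25%, 1.62% and 2.91%, and of Ikbkb 1.29%, 7.501%, 2.54% and 3.04%. Of the 7 genes with such transcripts, 4 had their highest share in replicate 2 in the first quantification and 7 in the second. How many genes outside the 8 did so was not counted. Summed TPM of the nuclear RNAs Malat1, Neat1, Kcnq1ot1 and Meg3 was 65.3, 760.8, 447.9 and 316.4, lowest in replicate 1 and highest in replicate 2. The part of nuclear RNA in these shares was not tested. Protein-coding transcripts held 89.0%, 84.4%, 88.3% and 90.7% of the TPM of the 8 genes.

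**Figure D4:**
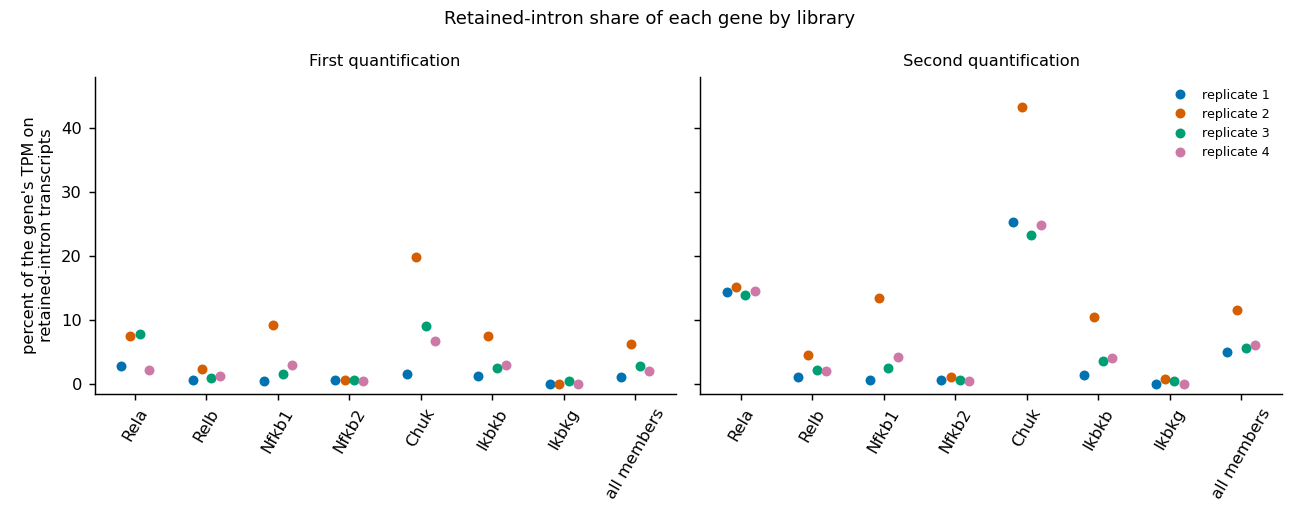
Percent of TPM on retained-intron transcripts (y axis, linear) for the 7 genes that have them and for all 8 genes together, in the first (left) and second (right) quantification; points are libraries. Replicate 2 stood highest for all genes together in both, at 6.24% and 11.6%.

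The levels were also compared between the quantifications after centring each library on the median difference of its protein-coding genes. As deposited, TPM of the second quantification were lower, with means of 8.67 for Nfkb2, 7.95 for Nfkb1, 7.49 for Ikbkb, 7.14 for Rela, 4.40 for Relb, 4.25 for Chuk, 3.91 for Ikbkg and 2.27 for Rel. The protein-coding median of the log2 difference was -1.17, -1.12, -1.69 and -1.68 in replicates 1 to 4. After centring, the second minus the first quantification ranged from -0.22 for Nfkb1 (SE 0.02) to 0.28 for Ikbkg (SE 0.04), with Chuk at 0.22 (SE 0.03). None of the 8 differed by more than a log2 difference of 1 (limma treat, 0 of 8 at an adjusted p below 0.05 and 0 of 8 at an unadjusted p below 0.05), and 0.423% of 9447 protein-coding genes did. The sign was the same in 4 of 4 libraries for 7 of the 8 genes, and Rela was the exception. Both quantifications came from the same libraries, and the share of all genes with 1 sign was not counted.

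For 6 of the 8 genes the spread between replicates lay below that of the median gene, a description with no test. The genes behind that median were not matched to the 8 in count, so the part of expression level in this was not tested. The biological coefficient of variation (BCV), the relative spread of counts between libraries beyond counting error by edgeR, had a median of 0.0728 over the 8 genes and of 0.118 over the 10989 genes that averaged 50 counts or more. It was 0.142 for Relb, 0.132 for Nfkb2, 0.0792 for Rela, 0.0764 for Nfkb1, 0.0692 for Rel, 0.0617 for Chuk and 0.0284 for Ikbkg. For Ikbkb it was 0.00988, at the lower edge of what the estimate allows. The spreads of Relb and Nfkb2 lay above the median of all genes and those of the other 6 below it. Single libraries moved some of them: Nfkb2 fell to 0.0803 without replicate 2, Relb to 0.0801 without replicate 3 and Nfkb1 to 0.0167 without replicate 4, and Ikbkg to 0.00988 without replicate 3 or 4. Without replicate 1 the median of the 8 genes was 0.0915 and that of all genes 0.092, with 4 of 8 below it.

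On the log2 scale of TMM-scaled counts, Relb deviated from its own mean by 0.09, -0.02, -0.28 and 0.21 in replicates 1 to 4 and Nfkb2 by 0.16, -0.25, -0.05 and 0.14. Ikbkb spanned 0.03 over the 4 libraries. The protein-coding genes of at least 10 TPM with the profile nearest to each gene were, by root mean square difference over the 4 libraries, Irf2 (0.0104) and Rabep1 (0.0158) for Nfkb1 and Tmbim4 (0.0107) and Slc15a3 (0.0131) for Nfkb2. They were Zfp414 (0.0107) and Manbal (0.0151) for Rela, Rnf2 (0.023) and BC028528 (0.0324) for Relb, and Lxn (0.0183) and Apool (0.0208) for Rel. For the kinase subunits they were Csnk1g2 (0.00592) and Brd7 (0.0106) for Ikbkb and Ythdf3 (0.0138) and Eapp (0.0144) for Chuk, and Spag9 (0.00791) was among the nearest for Ikbkg. Such likeness was common: 165 of 4212 genes lay within 0.1 of Relb, 799 within 0.1 of Nfkb1 and 1188 of 4213 within 0.1 of Chuk. It is a description over 4 libraries that share depth and handling.

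The other genes of the pathway were counted against the same protein-coding median, by the same limma fit and beside the same 46.0% of all protein-coding genes called above. Of the IkB proteins 5 of 6 were called above and 1 below. Nfkbia, the inhibitor IkB-alpha, led with 81.4 ± 27.1 TPM, followed by Nfkbib with 20.6 ± 6.20 TPM and the nuclear IkB protein Bcl3 with 16.5 ± 4.32 TPM. Nfkbid, another nuclear IkB protein, was called below at 1.59 ± 0.29 TPM. Of the genes upstream of the kinases 7 of 10 were called above, led by the ubiquitin-conjugating enzyme Ube2n (53.8 ± 14.2 TPM), the linear ubiquitin ligase subunit Sharpin (30.8 ± 2.60 TPM) and the TAK1-binding Tab2 (27.2 ± 4.62 TPM). Tab1 (3.60 ± 0.52 TPM) and Tab3 (2.56 ± 0.32 TPM) were called below, and the ubiquitin ligase Traf6 (4.83 ± 0.72 TPM) had neither call. Over protein-coding transcripts only, Ube2n lost its call (0.02, limma adjusted p = 0.854). With the second quantification Tab1 lost its call (-0.0214, limma adjusted p = 0.843) and Traf6 was called above (0.36, limma adjusted p = 0.0067), whereas with a summed count of at least 40 Traf6 was called below (-0.28, limma adjusted p = 0.00964). With no filter on low counts the median lay so much lower that every gene named in these lists as called below or with neither call stood above it, from 1.66 for Il6 to 4.25 for Traf6.

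In the non-canonical branch 6 of 8 tested genes were called above and 0 below, led by the ubiquitin ligase Birc3 (33.1 ± 7.93 TPM) and the receptors Tnfrsf11a (22.7 ± 5.001 TPM) and Ltbr (20.98 ± 3.65 TPM). Map3k14, the kinase NIK that activates IKK-alpha (4.61 ± 0.91 TPM), and Traf3, which promotes NIK turnover (4.74 ± 1.21 TPM), had neither call. Tnfrsf13c, a TNF receptor family gene of B cells at 0.015 ± 0.0058 TPM, was not tested because its counts were too low. Of the ubiquitin ligase that recognises phosphorylated IkB, 4 of 5 genes were above, with Rbx1 at 50.1 ± 7.63 TPM, Skp1a at 34.9 ± 8.09 TPM and Fbxw11 at 20.6 ± 3.91 TPM. Btrc, which encodes the other substrate-binding subunit, was called below at 3.38 ± 0.70 TPM. Related kinases, adaptors and chaperones gave 7 of 8 above. The chaperones Hsp90ab1 (244 ± 58.4 TPM) and Hsp90aa1 (79.5 ± 27.5 TPM) and the IKK-related kinase Ikbke (61.7 ± 13.1 TPM) were highest, and Tbkbp1 (4.76 ± 1.04 TPM) had neither call. With the second quantification Map3k14 (0.34), Traf3 (0.69) and Tbkbp1 (0.45) were called above and Btrc lost its call (0.0196). With a summed count of at least 40 Map3k14 (-0.36), Traf3 (-0.33) and Tbkbp1 (-0.32) were called below.

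Of the deubiquitinases that restrain the pathway 3 of 4 were above, Tnfaip3 (24.1 ± 8.49 TPM), Otulin (13.9 ± 1.44 TPM) and Cyld (11.0 ± 2.29 TPM), with Otud7b below at 4.05 ± 0.58 TPM. Of 15 known NF-kB target genes 11 were called above and 4 below. The chemokines Ccl5 (5322 ± 1570 TPM), Cxcl10 (457 ± 302 TPM) and Ccl3 (241 ± 84.3 TPM) led. The cytokines Il6 (0.81 ± 0.44 TPM) and Il12b (2.18 ± 1.47 TPM), the chemokine Cxcl1 (1.54 ± 1.18 TPM) and the prostaglandin synthase Ptgs2 (3.47 ± 1.44 TPM) were called below. With the second quantification Il12b (-0.69, limma adjusted p = 0.0687) and Ptgs2 (-0.091, limma adjusted p = 0.589) lost that call and Otud7b was called above (0.48, limma adjusted p = 0.00142). Over protein-coding transcripts only, Otud7b had neither call (-0.061, limma adjusted p = 0.516). The median level over the median of protein-coding genes was 1.64 for the 8 subunits and kinases, 1.45 for the IkB proteins, 1.83 for the upstream genes and 2.69 for the targets, on the log2 scale.

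**Figure D5:**
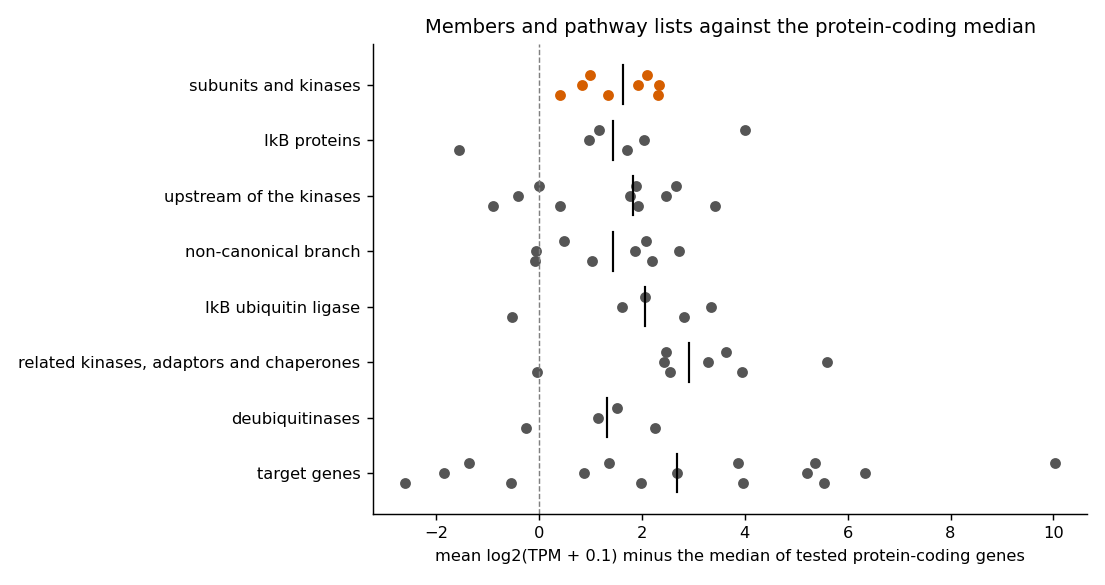
Mean difference of log2(TPM + 0.1) from the median of tested protein-coding genes (x axis, dashed line at 0) for the 8 subunits and kinases (orange) and the tested genes of 7 pathway lists (grey); points are genes and black lines list medians. The 8 genes lay between 0.40 and 2.34, whereas the targets ranged from -2.59 for Il6 to 10.03 for Ccl5.

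Library totals were 30660511 to 48223718 expected counts. Macrophage markers were at 1 TPM or more in 10 of 10 cases, with summed TPM of 6696 to 9154. Of the other types, 1 of 6 T cell markers (Cd4), 2 of 7 neutrophil markers (S100a8 and S100a9), 0 of 5 B cell, 0 of 4 dendritic cell, 0 of 3 erythroid and 0 of 4 stroma markers reached 1 TPM, with Hbb-bs at 0. In such bulk samples fewer cells of a type and less RNA per cell cannot be told apart.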

How the data were processed

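Each of 4 libraries came with a gene table and 2 transcript tables on mm10 with annotation M21, per the deposited notes of each library. Expected counts, TPM and posterior mean TPM are deposited per gene and, in 1 transcript table, per transcript (the first quantification), per the file headers. The other transcript table holds estimated counts and TPM (the second quantification), per the file headers. The authors derived the first from a transcriptome alignment and the second from the read files, per the deposited notes; the sources used here do not name the tools. The deposited TPM are relative to all features of a library. All 8 genes matched GENCODE M21.

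Genes of at least 10 expected counts in all were fitted on log2(TPM + 0.1) with limma 3.58.1 (an intercept, eBayes with trend), with Benjamini-Hochberg adjustment over all genes tested, and the quantifications were compared with limma treat (genes of at least 1 TPM in either). Spread came from edgeR 4.0.16 (TMM, gene-wise dispersion) on expected counts rounded to whole numbers, with DESeq2 1.42.0 as an alternative. Promoters came from RefSeq (GRCm38.p6). Genes are named as members, as the 3 most abundant of a pathway list, as list genes not called above the median, or as the 2 nearest profiles. Some genes these rules select are left out here. Members, lists and markers were chosen with earlier results of these data known. The fits were tested on simulated data. R 4.3.3 and Python 3.11.15 were used. Skp1 was not matched. Intervals between libraries cover these 4 samples only, and the depth, 30660511 to 48223718 expected counts, gave each gene at least 1299.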

Additional observations from a re-analysis of the deposited data

Results flagged for a closer look

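Of 90 sets of 4 library values examined, 5 had 1 library far from the other 3 by Dixon's test, and chance flags about 1 in 20 sets. Rela had 23.15 TPM in replicate 4, against 17.04 to 17.26 TPM in the other libraries; over the protein-coding median of each library, replicate 4 (2.05 on the log2 scale) lay beside replicate 2 (2.03). Ikbkg had 97.54% of its TPM on protein-coding transcripts and 0.4464% on a retained-intron transcript in replicate 3, against 100% and 0% in the others. Both flags rest on few reads, 1.41 expected reads of the retained-intron Ikbkg-212 and 5.4 of the processed transcript Ikbkg-213. The other libraries were tied, so any departure in replicate 3 would have been flagged, and the flags are not independent. In the second quantification those shares of Ikbkg in replicate 3 were 99.6% and 0.395%, and replicate 2 had 0.842% on the retained-intron transcript. Tnfaip3 had 36.74 TPM in replicate 4, against 18.68 to 21.5 TPM in the others. Otulin had 11.77 TPM in replicate 2, against 14.27 to 14.78 TPM in the others.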

How the results depend on the processing

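No paired comparison of conditions was possible because the samples form 1 group. All 8 genes stayed above the protein-coding median under 11 of 12 alternatives, and 7 of 8 with a summed count of at least 40. All 8 stayed above 1 TPM under every alternative run. Between the quantifications 0 of 8 were called beyond a log2 difference of 1 (limma treat) under every alternative run. Without centring, however, all 8 estimates lay beyond it, from -1.13 for Ikbkg to -1.63 for Nfkb1. Of 34 named pathway genes, 375 of 408 values kept direction and call. With no filter on low counts the protein-coding median fell so far that named genes called below it or uncalled turned to the upper side: Nfkbid 2.70, Traf6 4.25, Tab1 3.84, Tab3 3.36, Map3k14 4.17, Traf3 4.20, Btrc 3.73, Tbkbp1 4.22, Otud7b 4.00, Il6 1.66, Il12b 2.89, Cxcl1 2.41 and Ptgs2 3.71 on the log2 scale. With the second quantification Traf6 (0.36), Map3k14 (0.34), Traf3 (0.69), Btrc (0.0196), Tbkbp1 (0.45) and Otud7b (0.48) turned as well, and over protein-coding transcripts only, an alternative added after the data were seen, Traf6 (0.12), Map3k14 (0.0881), Traf3 (0.16) and Tbkbp1 (0.11). Calls below the median were lost with the second quantification by Tab1 (-0.0214), Btrc, Il12b (-0.69) and Ptgs2 (-0.091), and over protein-coding transcripts by Otud7b (-0.061), where Ube2n (0.02) lost its call above. With a summed count of at least 40 Traf6 (-0.28), Map3k14 (-0.36), Traf3 (-0.33) and Tbkbp1 (-0.32) became called below, as did Traf3 without replicate 1 (-0.22). The cause was not tested for these settings.

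Nfkb1 minus Nfkb2 turned to -0.11 with the second quantification, -0.16 over protein-coding transcripts and -0.0543 without replicate 2 (up to 0.0701 without replicate 1), and Ikbkb minus Rela to -0.55 over protein-coding transcripts. Between the quantifications without centring, Rela (-1.38), Chuk (-1.20) and Ikbkg (-1.13) turned negative, as did Rela (-0.11) with a pseudocount of 1. The median BCV of the 8 genes was 0.0954 with the second quantification and 0.0636 to 0.0915 with 1 replicate left out. With the second quantification the transcript that led in the first held 49.0% of Nfkb1, 38.7% of Nfkb2, 81.8% of Rela, 80.5% of Relb, 58.3% of Chuk and 26.3% of Ikbkg, where Nfkb2-202 (51.0%) and, on average, Ikbkg-203 (26.9%) led instead, and protein-coding transcripts held 82.6% of Rela, 95.2% of Relb, 70.8% of Chuk and 94.2% of Ikbkg. By shares of expected counts, also added later, the same transcripts held 46.5% of Nfkb2, 85.2% of Ikbkb, 98.0% of Rela and 46.4% of Ikbkg, and protein-coding transcripts 99.4% of Nfkb2, 86.9% of Ikbkb and 98.0% of Rela. By posterior mean TPM Rela-201 held 88.9%. With 4 libraries of 1 group, differences between members cannot pass 0.05 in an exact test.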
